A study of Mus musculus with 2 samples.

Results

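The enzymes of glycolysis, of the entry of pyruvate into mitochondria and of the tricarboxylic acid (TCA) cycle were followed in brainstem nuclei by RNA-seq of single nuclei. The group was a list of 39 genes named by enzyme, and all 39 were among the 25556 genes of the deposited counts. They were ordered by step, with 10 genes of upper glycolysis (to the triose phosphates) and 6 of lower glycolysis, 4 subunits of the pyruvate dehydrogenase (PDH) complex, 4 PDH kinases and pyruvate carboxylase. The TCA cycle had 12 genes, and Idh1 and Mdh1 are the cytosolic counterparts of TCA cycle enzymes. The counts came from 1 WT library and 1 HET library, both of brainstem from untreated females at P41 on the C57Bl6 background. HETs carried Scn1aA1783V/WT, a heterozygous missense knock-in of the sodium channel gene, which was bred by crossing males with the floxed allele to Sox2-Cre females, and WTs were littermates. Since Sox2-Cre acts in the early embryo, the mutation was not limited to the brainstem or to 1 cell type. Each library was labelled as the first biological replicate of its genotype, so that no test between genotypes could be made, and every interval below covers counting error only.

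Glycolysis splits glucose into pyruvate in the cytosol. The PDH complex turns pyruvate into acetyl-CoA inside mitochondria, where the TCA cycle oxidizes it and supplies electrons to the respiratory chain, while pyruvate carboxylase refills the cycle with oxaloacetate. In the brain, astrocytes are known for strong glycolysis and for pyruvate carboxylase, neurons for oxidative use of pyruvate and lactate, and several steps are run by paralogous enzymes that differ between cell types. Aldoc and Eno2 are the textbook examples, aldolase C as a marker of astrocytes and enolase 2 as neuron-specific enolase.

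The promoters of 5 members on which the results turn are shown first, as the 250 bases before the start site, 5′ to 3′ on the strand of the gene. Hk2 had its highest level in microglial nuclei, Aldoa and Aldoc are the aldolase pair, and Tpi1 and Pgam1 had the lowest ratios of HET to WT. The sequences are those of RefSeq on GRCm38.p6. Capitals mark ACGTG on either strand, the core recognized by hypoxia-inducible factors, which on the opposite strand reads CACGT.
Hk2, chr6:82774455-82774704, minus strand: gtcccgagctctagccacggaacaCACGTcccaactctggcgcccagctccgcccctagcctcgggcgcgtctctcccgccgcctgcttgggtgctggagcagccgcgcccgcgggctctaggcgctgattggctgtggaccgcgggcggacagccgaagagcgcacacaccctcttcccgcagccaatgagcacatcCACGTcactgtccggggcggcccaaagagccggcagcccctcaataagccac
Aldoa, chr7:126799179-126799428, minus strand: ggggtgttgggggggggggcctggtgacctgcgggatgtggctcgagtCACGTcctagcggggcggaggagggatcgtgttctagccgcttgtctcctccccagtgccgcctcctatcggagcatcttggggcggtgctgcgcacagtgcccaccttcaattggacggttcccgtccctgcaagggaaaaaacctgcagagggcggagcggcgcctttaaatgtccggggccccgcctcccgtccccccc
Aldoc, chr11:78323948-78324197, plus strand: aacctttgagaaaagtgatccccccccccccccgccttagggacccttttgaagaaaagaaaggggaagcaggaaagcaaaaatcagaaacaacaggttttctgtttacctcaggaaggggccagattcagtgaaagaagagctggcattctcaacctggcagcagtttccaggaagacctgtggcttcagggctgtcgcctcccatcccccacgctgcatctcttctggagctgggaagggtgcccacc
Tpi1, chr6:124814159-124814408, minus strand: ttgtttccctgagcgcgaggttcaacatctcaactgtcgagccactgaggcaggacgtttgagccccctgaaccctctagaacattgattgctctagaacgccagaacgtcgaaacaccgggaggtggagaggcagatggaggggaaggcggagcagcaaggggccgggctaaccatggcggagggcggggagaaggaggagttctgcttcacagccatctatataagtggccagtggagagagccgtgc
Pgam1, chr19:41911621-41911870, plus strand: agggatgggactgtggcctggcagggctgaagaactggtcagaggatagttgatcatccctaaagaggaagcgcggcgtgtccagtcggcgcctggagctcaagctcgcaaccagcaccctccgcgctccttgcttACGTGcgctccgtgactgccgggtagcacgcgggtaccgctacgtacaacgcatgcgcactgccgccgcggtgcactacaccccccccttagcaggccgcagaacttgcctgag
The motif stood at 2 places before Hk2, at 1 before Aldoa and at 1 before Pgam1, and at none before Aldoc and Tpi1. Of the 38 members with a promoter in this table, 13 held it (34.2%), 6 of them among the 16 glycolysis genes. In the whole table, 5444 of 32851 windows of the same length held it (16.6%), where a gene with several start sites has several windows. A CACGTG hexamer holds the motif on both strands. These matches are letters in a window and say nothing of binding.

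The WT library held 70301390 UMIs (unique molecular identifiers, each counting 1 captured RNA molecule) in 9259 nuclei, and the HET library 66176778 in 9022. The libraries shared 23 cell barcodes. Levels are UMIs per 1000000 UMIs (CPM), and a difference is given as the log2 of the HET CPM over the WT CPM. Scn1a itself was at 380 CPM in WT and 420 in HET, and since a missense allele is counted like the normal one, this checks no label. The makeup differed, with 66.1% neuronal nuclei in WT and 59.8% in HET, 19.1% and 26.4% oligodendrocytes, and 6.58% and 7.86% astrocytes. Ribosomal protein genes took 0.612% of the UMIs in WT and 0.363% in HET. Markers were read by cluster, with Meg3 at 11380 CPM in the 9 neuronal clusters together, Mag at 1085 CPM in oligo, Slc1a2 at 2697 CPM in astro and Flt1 at 2593 CPM in endo. Meg3 was lower in neuron.5 (4557 CPM) and in neuron.9 (1639 CPM, near the 1620 CPM of endo). Only 108 of 405 nuclei in micro, 209 of 344 in endo and 40 of 266 in fibro also had that type as their deposited reference label. Values for microglia and endothelial cells are therefore given for these nuclei alone (micro and endo with agreeing labels), except where the cluster micro or endo is named. In the other nuclei of micro, the neuronal Meg3 was at 8540 CPM beside the microglial Csf1r at 73.6 CPM. The neuronal markers Snap25, Meg3, Syt1 and Rbfox3 stood at 8.6% to 21.2% of their neuronal level in astro and oligo. Marker genes of inhibitory and glutamatergic neurons ranged from 12.6% (Slc17a8) to 77.4% (Slc32a1) in astro. In oligo they ranged from 23.2% (Slc6a5) to 79.1% (Slc32a1). The markers thus give no single level of neuronal RNA in these nuclei. For sums over all nuclei, fewer cells of a type and less RNA per cell cannot be told apart.

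The members as a group were lower in HET. Together they took 0.194% of all UMIs in WT and 0.163% in HET, a log2 ratio of −0.25 (95% interval −0.26 to −0.24). Of the 39 genes, 33 were below WT and 6 above, and the median log2 ratio was −0.24. All genes with at least 200 UMIs also leaned that way, since 61.7% of the 16347 were below WT and their median was −0.10. Measured from that median, the members' median was −0.14 and 26 of 39 members lay below it, while 7 that were below WT lay above it (Pdha1, Dld, Pcx, Idh2, Idh3a, Sucla2 and Fh1). Past 1.5-fold, 2 members were lower, Tpi1 and Pgam1, where 12.7% of all genes passed that line, and none was higher, where 6.29% did. Measured from the median of all genes, the members past 1.5-fold were again 2 lower (8.84% of all genes) and 0 higher (8.28% of all genes). The share of members past 1.5-fold was thus below the background in both directions. Of the members, 37 held at least 1000 UMIs, while the background took all genes with at least 200 and was not matched by count.

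**Figure D1:**
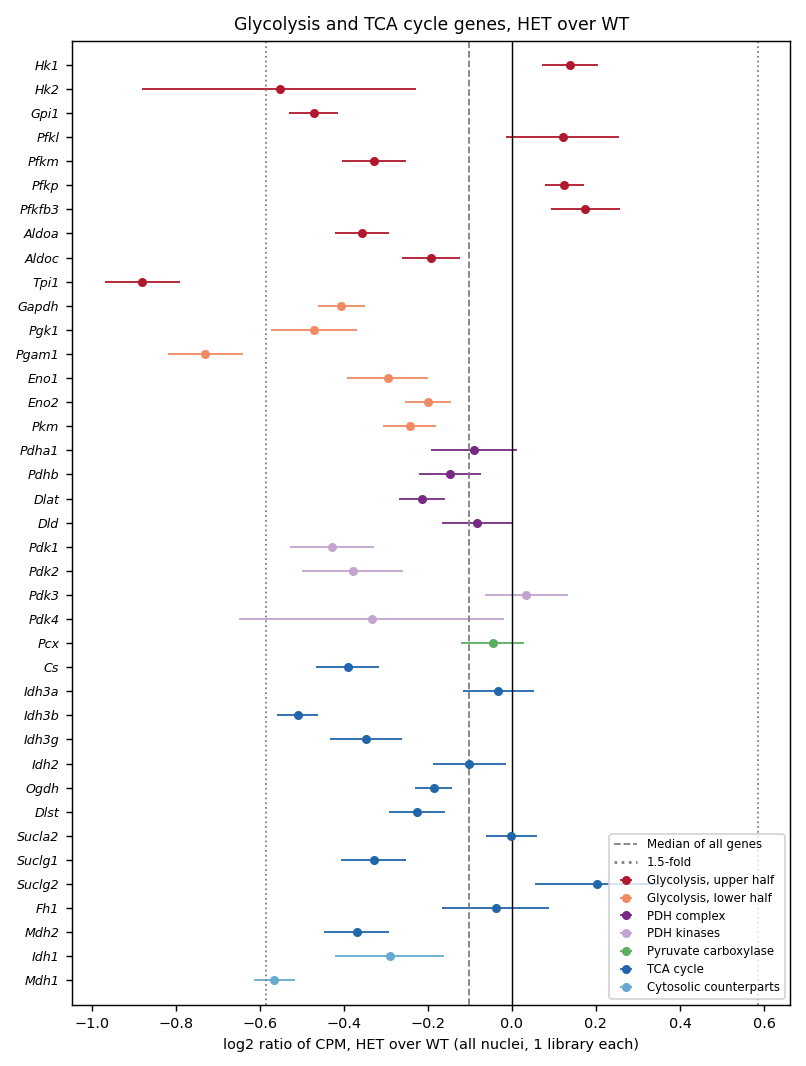
Log2 ratio of CPM, HET over WT, of each of the 39 genes over all nuclei, coloured by step, with bars for the 95% counting interval and 1 library per genotype. The dashed line is the median of all genes (−0.10) and the dotted lines mark 1.5-fold, and only Tpi1 and Pgam1 lie beyond them.

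In upper glycolysis, 6 of 10 genes were below WT and 4 above, Hk1, Pfkl, Pfkp and Pfkfb3. Hk1, the main hexokinase of brain, which traps glucose in the cell, was at 50.3 CPM in WT and 55.3 CPM in HET (log2 0.14, interval 0.07 to 0.20). Hk2, the inducible hexokinase, was at 2.90 and 1.98 CPM (log2 −0.55, interval −0.88 to −0.23). Gpi1, which isomerizes glucose phosphate, was at 83.8 CPM in WT and 60.4 in HET (log2 −0.47, interval −0.53 to −0.41). Hk1 therefore lay above WT while Hk2 and Gpi1 lay below, none of them past 1.5-fold.

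Phosphofructokinase commits sugar to glycolysis and is built from liver (Pfkl), muscle (Pfkm) and platelet (Pfkp) type subunits. Pfkm was at 47.0 CPM in WT and 37.5 CPM in HET (log2 −0.33, interval −0.40 to −0.25). Pfkp was at 108 and 118 CPM (log2 0.12, interval 0.08 to 0.17), and Pfkl at 12.8 and 13.9 CPM (log2 0.12, interval −0.01 to 0.25). The sum of the 3 subunit genes was level, at 168 CPM in WT and 169 CPM in HET (log2 0.01, interval −0.03 to 0.05), while the members differed in direction. Pfkfb3, which makes the strongest activator of this enzyme, was at 33.4 CPM in WT and 37.7 CPM in HET (log2 0.17, interval 0.09 to 0.26). The aldolases split the sugar into triose phosphates. Aldoa was at 65.0 and 50.8 CPM (log2 −0.36, interval −0.42 to −0.29) and Aldoc at 53.7 and 47.1 CPM (log2 −0.19, interval −0.26 to −0.12). Tpi1 (chr6:124810586-124814296, minus strand, GRCm38 as for the genes below), the triose phosphate isomerase, had the lowest ratio of all members, with 3014 UMIs in WT and 1542 in HET, or 42.9 and 23.3 CPM (log2 −0.88, interval −0.97 to −0.79). Among all genes compared, 4.31% had a lower ratio than Tpi1.

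In lower glycolysis, which yields ATP, all 6 genes were lower in HET, and their sum was 335 CPM in WT and 263 CPM in HET (log2 −0.35, interval −0.37 to −0.32). Gapdh, the dehydrogenase that opens it, was at 86.7 CPM in WT and 65.5 CPM in HET (log2 −0.41, interval −0.46 to −0.35). Pgk1, the first ATP-making step, was at 27.2 and 19.6 CPM (log2 −0.47, interval −0.57 to −0.37). Pgam1 (chr19:41911923-41918660, plus strand), the phosphoglycerate mutase, was at 40.3 and 24.3 CPM (log2 −0.73, interval −0.82 to −0.64), the second-lowest ratio of the group. The enolases and pyruvate kinase had smaller differences. Eno1 was at 28.8 and 23.5 CPM (log2 −0.30, interval −0.39 to −0.20), Eno2 at 84.8 and 73.9 CPM (log2 −0.20, interval −0.25 to −0.14), and Pkm, the pyruvate kinase of brain, had 4710 UMIs in WT and 3745 in HET (log2 −0.24, interval −0.31 to −0.18). Gapdh, Tpi1, Eno1 and other glycolytic genes have near-identical copies in the mouse genome, and their values are uncertain to the extent that reads were split between copies. For Eno1, the copy Eno1b held 138 UMIs in WT and 43 in HET.

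At the entry of pyruvate, the PDH subunits differed little and their kinases more. Pdha1 and Pdhb, the catalytic E1 subunits, had log2 ratios of −0.09 (interval −0.19 to 0.01) and −0.15 (interval −0.22 to −0.07). Dlat, the E2 core, was at 87.2 CPM in WT and 75.2 CPM in HET (log2 −0.21), and Dld, the E3 subunit that PDH shares with other complexes, at 34.8 and 32.9 CPM (log2 −0.08, interval −0.17 to 0.00). The median of these 4 genes (−0.12) was close to that of all genes (−0.10). The PDH kinases switch the complex off by phosphorylation. Pdk1 was at 28.4 CPM in WT and 21.2 CPM in HET (log2 −0.43, interval −0.53 to −0.33), and Pdk2 at 19.4 and 14.9 CPM (log2 −0.38, interval −0.50 to −0.26). Pdk3 was level, at 24.3 and 24.8 CPM (log2 0.03, interval −0.06 to 0.13). Pdk4, the kinase known to rise with fatty acid use, had 198 UMIs in WT and 148 in HET (log2 −0.33, interval −0.65 to −0.02). Pdk3 thus made up 32.4% of the kinase UMIs in WT (interval 31.1% to 33.7%) and 39.3% in HET (interval 37.9% to 40.8%). Pcx, pyruvate carboxylase, was at 43.1 and 41.7 CPM (log2 −0.05, interval −0.12 to 0.03).

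In the TCA cycle, 11 of 12 genes were below WT, with a median of −0.21 and a sum of 648 CPM in WT and 547 CPM in HET. Relative to the median of all genes, 7 of the 12 lay below. Cs, citrate synthase, which takes up acetyl-CoA, was at 50.2 CPM in WT and 38.2 CPM in HET (log2 −0.39, interval −0.47 to −0.32). The NAD-linked isocitrate dehydrogenase is built from Idh3a, Idh3b and Idh3g, and its subunit genes did not move by the same amount. Idh3b (chr2:130279309-130284547, minus strand) was at 119 CPM in WT and 83.3 CPM in HET (log2 −0.51, interval −0.56 to −0.46), and Idh3g at 36.8 and 28.9 CPM (log2 −0.35, interval −0.43 to −0.26). Idh3a, the catalytic subunit, was at 33.4 and 32.7 CPM (log2 −0.03, interval −0.12 to 0.05), and its interval did not overlap those of the other subunits. Idh2, the NADP-linked mitochondrial enzyme, had a log2 ratio of −0.10.

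The later steps of the cycle differed in the same uneven way. Ogdh and Dlst, of the oxoglutarate dehydrogenase complex, had log2 ratios of −0.19 and −0.23. Succinyl-CoA ligase pairs 1 alpha subunit (Suclg1) with an ATP-forming (Sucla2) or a GTP-forming (Suclg2) beta subunit. Suclg1 had 3167 UMIs in WT and 2374 in HET (log2 −0.33, interval −0.41 to −0.25), while Sucla2 was at 65.7 and 65.6 CPM (log2 0.00, interval −0.06 to 0.06). Suclg2 (chr6:95473009-95718800, minus strand) was at 10.2 and 11.7 CPM (log2 0.20, interval 0.05 to 0.35), the only TCA cycle gene above WT. Fh1, fumarase, was at 15.1 and 14.7 CPM, and Mdh2, which closes the cycle, at 46.8 and 36.2 CPM (log2 −0.37, interval −0.45 to −0.29). The cytosolic pair was lower as well. Mdh1 (chr11:21556787-21572367, minus strand), of the malate-aspartate shuttle, was at 127 CPM in WT and 85.8 CPM in HET (log2 −0.57, interval −0.61 to −0.52), and Idh1 at 15.9 and 13.0 CPM (log2 −0.29).

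Gene span, the distance from the first to the last annotated base, moved with these ratios. All genes were put in 5 equal groups by span, and their median log2 ratio went from −0.38 in the shortest group to 0.087 in the longest. Across 16100 genes Spearman's rho was 0.37. Of the members, 8 were in the shortest group, Tpi1, Gapdh, Aldoa, Aldoc, Pgam1, Pdhb, Idh3b and Idh3g, and their median was also −0.38. The 4 members in the longest group, Hk1, Pfkfb3, Pcx and Suclg2, had a median of 0.16. Across the 39 members, Pearson's r of log10 span and log2 ratio was 0.63 and Spearman's rho 0.54, as a description over genes that share both libraries. Set against genes of the same span group, the median of the members was −0.071 and that of glycolysis −0.047, and no member was past 1.5-fold. The part of gene span in the ratios was not tested.

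**Figure D2:**
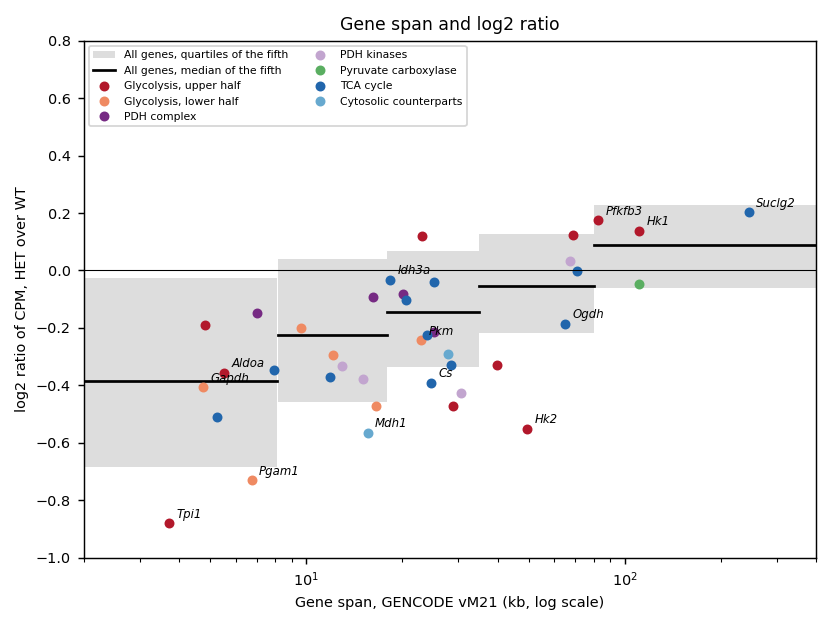
Log2 ratio of CPM, HET over WT, against gene span in kb on a log axis, for the 39 genes by step, with the median (black) and quartiles (grey) of all genes in each of 5 groups by span (the first and last groups run past the axis). Tpi1, Pgam1 and Mdh1 lie below the median of their group, while Gapdh and Aldoa lie close to it.

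Within the deposited clusters, where the share of each cluster in a library does not enter, the median of the members was again below WT. The makeup inside a cluster could still differ between the libraries: in neuron.1 the glycine transporter gene Slc6a5 was at 109 CPM in WT and 71.6 in HET, and in epend.1 the precursor marker Pdgfra was at 198 and 17.6 CPM, and its part in the ratios was not tested. Of the 16 clusters, 12 held 30 or more nuclei from both genotypes and were compared, for members with at least 50 UMIs there. In neuron.1, the largest cluster, the members' median was −0.29 beside −0.092 for all genes, and 32 of 39 were lower (59.8% of all genes were). In oligo it was −0.23 beside −0.098, with 31 of 38 lower (60.0% of all genes). In astro it was −0.16 beside −0.11, with 23 of 37 lower, a share near that of all genes (60.5%). Past 1.5-fold, 5 members were lower in neuron.1 (13.1% of all genes were), namely Tpi1, Pgam1, Mdh1, Hk2 and Pdk4, and 0 were higher (7.97% of all genes). Hk2 and Pdk4 were sparse in this cluster, with 54 and 41 UMIs in WT and 27 and 18 in HET. The choroid plexus marker Ttr was at 232 CPM in WT and 28.5 CPM in HET in neuron.1. The part of RNA from other cells in these ratios was not tested. In oligo 6 were lower (13.6% of all genes), Pgam1, Mdh2, Pdk1, Tpi1, Pdk2 and Idh3a, and 0 higher (8.19% of all genes). In astro 3 were lower (15.7% of all genes), Pgam1, Pdk4 and Aldoa. Suclg2 in astro was the only member past 1.5-fold higher in these 3 clusters, with 69 UMIs (32.6 CPM) in WT and 137 UMIs (52.6 CPM) in HET (log2 0.69, interval 0.26 to 1.13), where 5.89% of all genes were.

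Some members had the same direction wherever they could be measured, in clusters that come from the same libraries. Of all genes, 49.8% (neuron.5) to 60.5% (astro) were lower in a single compared cluster. The share of all genes lower in every cluster was not counted. Mdh1 was lower in all 12 clusters, from −1.01 in epend.1 to −0.30 in fibro. Idh3b, Aldoa and Gapdh were lower in 11 of 11 clusters, Pkm in 10 of 10, Pgam1 and Suclg1 in 9 of 9, and Tpi1 and Pfkm in 8 of 8, by value. The intervals held 0 in 2 clusters each for Mdh1, Pgam1 and Tpi1, in 4 for Gapdh, in 5 each for Idh3b and Aldoa, and in 6 each for Pkm, Suclg1 and Pfkm. Tpi1 was at −0.97 in neuron.1 (interval −1.09 to −0.86), −0.71 in oligo (interval −0.995 to −0.43) and −0.49 in astro (interval −0.86 to −0.13). Pgam1 was at −0.72, −0.81 and −0.90 in the same clusters. Others differed between clusters. Pfkp was at 0.46 in astro (interval 0.28 to 0.65) and 0.09 in neuron.1 (interval 0.03 to 0.14), and Pfkfb3 at 0.42 in astro and 0.39 in oligo beside 0.06 in neuron.1 (interval −0.04 to 0.16). Eno2 was at −0.20 in neuron.1 (interval −0.26 to −0.13) and 0.29 in oligo, with an interval that reached 0. Cs was at 1.20 in neuron.5 with an interval of −0.42 to 3.52, which rests on 3 UMIs in WT, against −0.52 in neuron.1. No difference between clusters was tested.

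**Figure D3:**
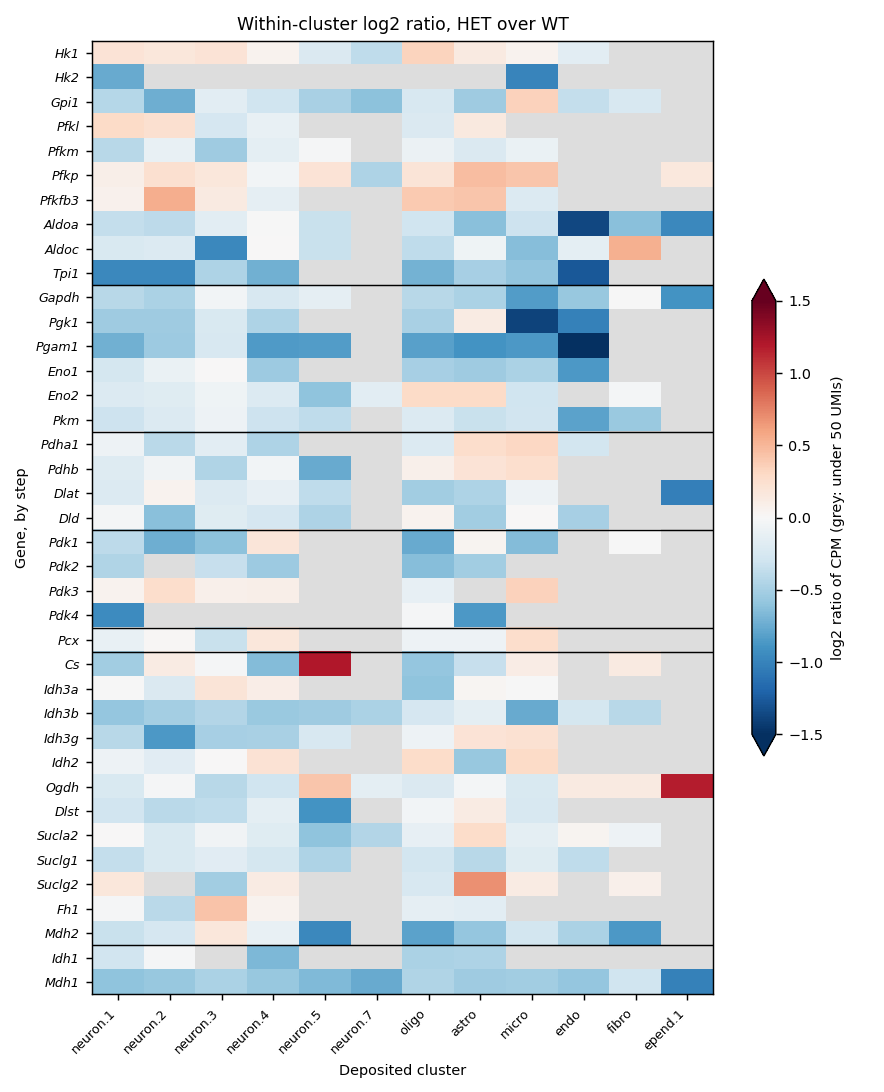
Log2 ratio of CPM, HET over WT, of each of the 39 genes (rows, by step) within each of the 12 compared clusters (columns), with grey for genes under 50 UMIs in a cluster. Mdh1 is blue in all 12 clusters and Idh3b in the 11 where it was compared, while Pfkp and Pfkfb3 are red in astro and oligo.

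Between cell classes, several enzyme families differed in the shares of their paralogs. The shares below compare classes, not the amounts of paralogs, since UMIs of different genes are not captured alike. Hk2 had 92 UMIs in all neuronal clusters (0.82 CPM) and 73 in the 108 microglial nuclei with agreeing labels (324 CPM), a fold of 396 (interval 287 to 545). It made up 91.2% of the hexokinase UMIs of these nuclei (interval 82.8% to 96.4%) and 1.46% in neurons. In the other nuclei of micro it was at 39.2 CPM, and in agreeing endothelial nuclei it had 0 UMIs, which allows up to 3 counts, beside 44 of Hk1. The microglial Hk2 was at 489 CPM in WT (40 UMIs, interval 349 to 665) and 230 CPM in HET (33 UMIs, interval 158 to 323). The Hk2 share was 7.04% in oligo, 6.25% in WT astro and 3.70% in HET astro, and 48.3% in the cluster fibro, where all 29 Hk2 UMIs came from nuclei whose labels did not agree.

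Among the phosphofructokinase genes, the Pfkp share was 67.2% in neurons, 67.7% in astro and 57.9% in oligo. Pfkl, the liver type, held 42.0% in agreeing endothelial nuclei (interval 31.1% to 53.5%), 15.6% in oligo, 7.82% in neurons and 3.85% in astro. Of the 34 Pfkl UMIs in these endothelial nuclei, 31 came from WT, where the share was 45.6%. In the whole cluster endo, Pfkl had 35 UMIs in WT and 4 in HET, and Pfkp 31 and 17. The endothelial Pfkl share is thus a value of the WT library, with too few UMIs in HET for a share. The muscle and platelet types were lower in oligo than in neurons, with Pfkm at 0.26 times (interval 0.22 to 0.30) and Pfkp at 0.21 times (interval 0.19 to 0.23) the neuronal level. In astro these were 2.07 and 1.82 times the neuronal level, and Pfkfb3 was 2.74 times it (interval 2.48 to 3.02). The neuronal markers Snap25, Meg3, Syt1 and Rbfox3 in oligo stood at 8.9% (Syt1) to 21.2% (Snap25) of their neuronal level, and Slc32a1 at 79.1%. The part of neuronal RNA in the oligo values of Pfkm and Pfkp was not tested. The share of Pfkm was 27.8% in WT and 21.8% in HET neurons (intervals 27.0% to 28.7% and 21.0% to 22.6%) and 34.1% and 24.6% in astro (intervals 30.4% to 38.0% and 21.8% to 27.5%), while that of Pfkp was higher in HET in both.

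The aldolase and enolase pairs followed their textbook classes in part. Aldoc was at 290 CPM in WT and 279 CPM in HET in astro, 7.86 times the neuronal level (interval 7.39 to 8.37), and made up 76.7% of the aldolase UMIs there, 49.4% in oligo and 40.8% in neurons. In agreeing endothelial nuclei Aldoa was at 295 CPM, 5.64 times the neuronal level (interval 4.86 to 6.52), with 174 of its 191 UMIs from WT. In astro the Aldoc share was 73.1% in WT (interval 70.0% to 76.1%) and 80.1% in HET (interval 77.4% to 82.7%), and in neurons it was 40.8% in both. Eno2 made up 78.5% of the enolase UMIs in neurons (interval 77.8% to 79.2%), 62.1% in oligo and 27.4% in astro. Its level in astro and oligo was 37.0% and 34.1% of the neuronal one, above the 19.7% and 21.2% of Snap25 but below the 53.1% and 52.3% of Slc17a6. The Eno2 share of the enolase UMIs in astro was 21.8% in WT and 33.0% in HET (intervals 17.2% to 27.1% and 27.5% to 38.8%). Eno1 was 3.58 times higher in astro than in neurons (interval 3.22 to 3.97).

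**Figure D4:**
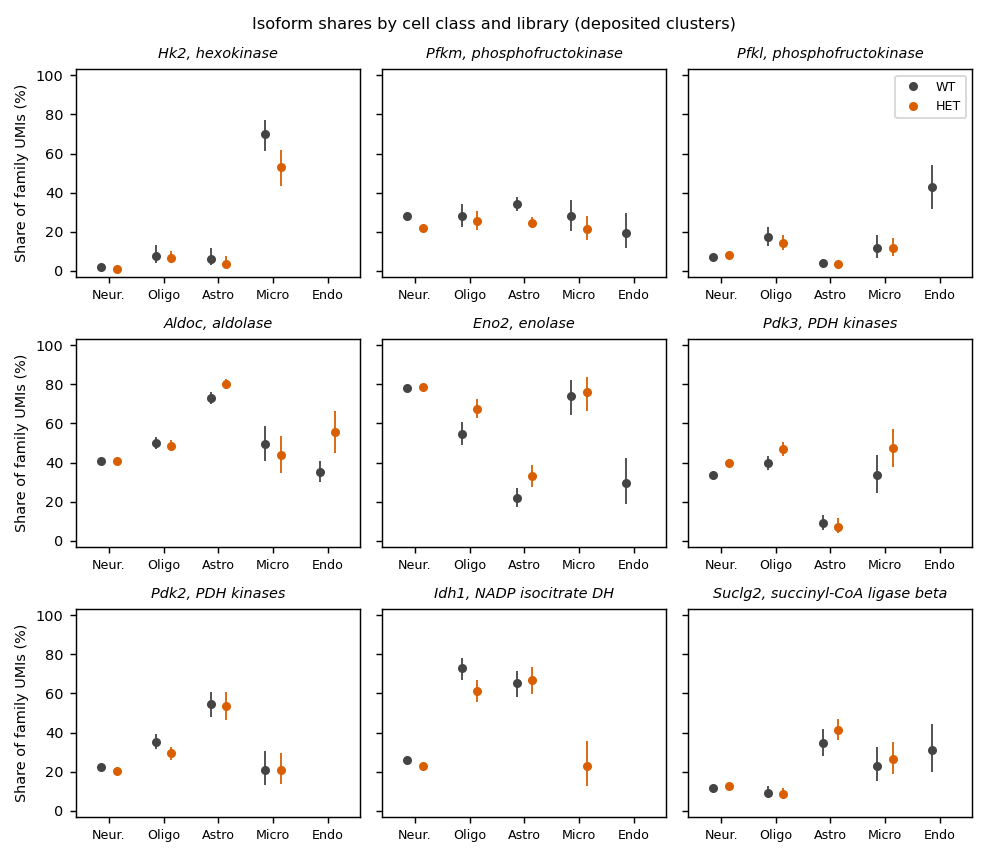
Share of the UMIs of an enzyme family (percent) that fell on the named isoform, by cell class, in WT (grey) and HET (orange), with Clopper-Pearson 95% intervals and no point where a family had under 50 UMIs. Hk2 stands out in micro, Pfkl in endo (WT only, with no HET point) and Aldoc in astro among the 5 classes plotted. Suclg2 is highest in astro, but WT endo (31.1%) is close to WT astro (34.7%). Eno2 is highest in neurons and micro, whose nuclei mostly carry other labels.

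The PDH kinases also differed by class. The Pdk2 share of the kinase UMIs was 54.0% in astro (interval 49.3% to 58.7%), 32.3% in oligo and 21.6% in neurons. That of Pdk3 was 43.5% in oligo (interval 40.8% to 46.1%), 36.4% in neurons and 8.22% in astro, where it had 22 UMIs in WT and 15 in HET. That of Pdk1 was 41.0% in neurons, 19.1% in astro and 13.7% in oligo, so that each of the 3 kinases had its highest share of these classes in a different one. Pdk4 was at 17.8 CPM in astro and 10.6 CPM in oligo but 0.59 CPM in neurons, 30.4 times higher in astro than in neurons (interval 21.7 to 42.6), and it was at 64.2 CPM in epend.2, which carries choroid plexus markers and came almost wholly from WT. Pcx was at 105 CPM in astro and 38.2 CPM in neurons, a fold of 2.74 (interval 2.50 to 3.01), and at 52.6 CPM in oligo.

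In the TCA cycle and its cytosolic counterparts, Idh1, Suclg2 and Cs stood out by class. Idh1 was 4.88 times (interval 4.25 to 5.59) and 2.35 times (interval 2.08 to 2.65) the neuronal level in astro and oligo, and made up 66.0% and 66.7% of the NADP-linked isocitrate dehydrogenase UMIs there against 24.6% in neurons. Suclg2 was 4.72 times the neuronal level in astro (interval 4.04 to 5.48) and 12.9 times in agreeing microglial nuclei (27 UMIs, interval 8.49 to 18.9). It made up 38.9% of the beta subunit UMIs in astro, 12.2% in neurons and 9.02% in oligo. Its share was 43.4% in the cluster fibro and 33.3% in agreeing endothelial nuclei (interval 22.0% to 46.3%). In astro it was 34.7% in WT and 41.4% in HET with overlapping intervals. Cs was 2.31 times the neuronal level in astro (interval 2.10 to 2.54). The other TCA cycle genes in astro ranged from 0.76 times for Ogdh to 1.94 times for Suclg1 relative to neurons. Oligodendrocytes were below neurons for 11 of the 12 TCA cycle genes by value, from Idh2 at 0.383 times (interval 0.327 to 0.444) to Fh1, whose interval held 1, and Mdh2 was at 1.06 times.

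Endothelial nuclei with agreeing labels had the highest levels of Aldoa, Tpi1, Gapdh, Pgk1, Pgam1 and Pkm among the 8 classes plotted. Of the single clusters, neuron.9, with 35 nuclei in WT and 2 in HET, was higher for all 6 of these genes, with Gapdh at 1542 CPM and Aldoa at 830.1 CPM. In the endothelial nuclei, Gapdh was at 357 CPM, 5.44 times the neuronal level, Pkm at 244 CPM (4.58 times), Pgam1 at 128 CPM (4.24 times) and Tpi1 at 116 CPM (3.59 times). Mdh2 was at 170 CPM (4.24 times). Pfkp, Pfkfb3, Dlst and Ogdh were among the members below neurons in the same nuclei, at 0.385, 0.267, 0.439 and 0.575 times. Eno2 was also lower there, at 26.1% of the neuronal level. Pfkfb3 and Dlst were sparse, with 6 and 15 UMIs in WT and 5 and 8 in HET in the whole cluster endo. The endothelial nuclei with agreeing labels came mostly from WT, and HET held 46 of their 231 Gapdh UMIs. In the whole cluster endo, log2 ratios of HET to WT were −1.89 for Pgam1 (interval −2.90 to −1.02) and −1.37 for Aldoa (interval −1.91 to −0.87). They were −1.28 for Tpi1, −1.02 for Pgk1, −0.80 for Pkm and −0.57 for Gapdh, with all these intervals below 0. The makeup of the whole cluster differed between the libraries, with the neuronal Meg3 at 1141 CPM in WT and 2610 CPM in HET. The part of this makeup in the endo ratios was not tested. The levels of both libraries together thus rest mainly on WT.

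**Figure D5:**
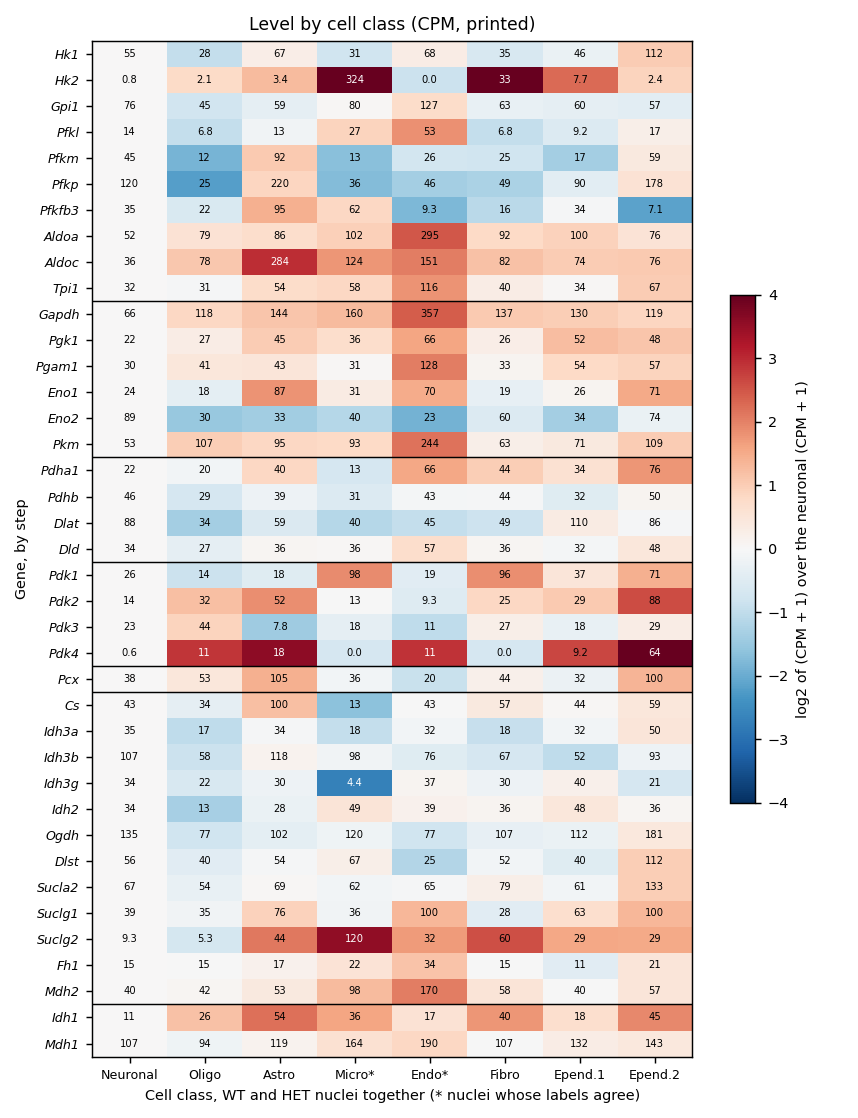
Level of each of the 39 genes (rows, by step) in 8 cell classes (columns), WT and HET nuclei together, printed in CPM and coloured by the log2 ratio to the neuronal level after adding 1 to both. Hk2 in micro, Aldoc in astro, Pdk4 in astro and epend.2, and Aldoa and Gapdh in endo are red.

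Of 48 other genes of these pathways, 46 were in the counts and 39 had at least 200 UMIs. Of these 39, 28 were below WT and 11 above (61.7% of all genes were below), with a median of −0.18. Past 1.5-fold, 4 were lower (12.7% of all genes) and none higher (6.29% of all genes). One of these, Ldha, the lactate dehydrogenase of glycolytic tissue (log2 −0.62, interval −0.81 to −0.43), is named after its value was seen. The other 3, the lowest, were Ldhc, the testis-type lactate dehydrogenase, with 174 UMIs in WT and 26 in HET (log2 −2.66, interval −3.31 to −2.06), Pdp1, which reverses the PDH kinases (20.6 and 11.7 CPM, log2 −0.81), and Tigar, which lowers the activator of phosphofructokinase (17.4 and 10.4 CPM, log2 −0.75). The highest were Me1, the cytosolic malic enzyme (46.9 and 57.8 CPM, log2 0.30), and Aco1, the cytosolic aconitase (22.7 and 27.8 CPM, log2 0.30). For the PDH complex, the kinases Pdk1, Pdk2 and Pdk4 and the phosphatase Pdp1 were thus below WT, as were 61.7% of all genes. The kinase Pdk3 was level (log2 0.03, interval −0.06 to 0.13).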

How the data were processed

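Brainstem nuclei of 1 WT and 1 HET mouse library (10x Genomics 3′ chemistry) were used. The authors deposited the raw UMI counts per gene and nucleus, made with Cell Ranger (version not given in the sources used here) on mm10 and filtered in Seurat 4.1 per the labels. A doublet score per nucleus was deposited by the authors with no caller or removal named, and no nucleus was left out on it here. Clusters and reference labels were taken as deposited, and the authors' percent values of mitochondrial and ribosomal UMIs per nucleus were used only as a check (medians 0.343% and 0.458% mitochondrial in WT and HET). Pgk1 and Eno1, which the study's methods list as removed genes, were present in the counts.

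UMIs were summed per library, cluster or class and expressed as CPM. Levels have exact Poisson intervals, ratios exact conditional binomial intervals and shares exact Clopper-Pearson intervals, all at 95%. With 1 library per genotype, no test was made, and a call means past 1.5-fold. Depth was 70301390 UMIs in WT and 66176778 in HET, so that 1 UMI is worth 0.0142 and 0.0151 CPM. Genes needed 200 UMIs over all nuclei, 50 within a cluster and 50 per family for a share. The members and lists were chosen with earlier results of these data known. Every member was to be named, and of the other pathway genes the 3 highest and the 3 lowest, of which 1 is not reported here. Gene positions are from GENCODE vM21 (GRCm38), which has 2 entries named Aldoa, and the one at the RefSeq position was used. A row of the counts named Aldoa.1 (35 and 46 UMIs) was left out. Several members overlap genes on the opposite strand (Mdh1 with Wdpcp, Idh3b with Nop56, Gapdh with Iffo1, Fh1 with Kmo), and the strand setting of the counting is not given in the sources used here. Of each gene's promoter windows, the one whose start lies within 100 bases of the most annotated coding transcripts was taken.

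Alternatives were other scalings and totals, equal cluster weights, deeper nuclei, nuclei with agreeing labels, fewer clusters, means over nuclei, thinned nuclei, other minimum counts and folds, and each library alone. The comparison within 5 groups of gene span was added after seeing the data. The functions were tested on simulated data. The scripts ran on scipy 1.17.1, matplotlib 3.10.9, pandas 2.3.3 and numpy 2.4.6 under Python 3.11.15.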

Additional observations from a re-analysis of the deposited data

How the results depend on the processing

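No paired analysis was possible because each genotype has 1 library and no result comes from a test between replicates. The median log2 ratio of all members (−0.24) was −0.14 when scaled to the median gene, −0.31 as a mean over nuclei of CPM and −0.071 against genes of the same span group (added after seeing the data). That of glycolysis (−0.31) was −0.21, −0.40 and −0.047 under the same settings, and that of the TCA cycle (−0.21) was −0.10 when scaled and −0.023 by span. Thinning every nucleus to 1000 UMIs gave the mean over nuclei again by construction. The 2 members past 1.5-fold lower became 0 by span and 0 at 2-fold. Scaling to the median gene turned the sign of 7 members (Pdha1, Dld, Pcx, Idh2, Idh3a, Sucla2 and Fh1), the span comparison that of 11, the mean over nuclei that of Pfkl and Pcx, and agreeing labels or leaving out clusters mostly from 1 library that of Sucla2. The Aldoc share of astro less neurons (35.9 percentage points) was 32.3 in WT and 39.3 in HET alone, that of Eno1 (51.1) 56.4 and 45.8, and that of Pdk3 in oligo less astro (35.2) 30.7 and 39.8. The Hk2 share of micro less neurons (60.5) was 89.8 in nuclei with agreeing labels, 67.8 in WT and 51.9 in HET. No share difference and no median within a cluster turned its sign. Counting depth limits microglial, endothelial and small neuronal values most, and 1 library per genotype limits every genotype difference, since differences between animals cannot be told apart from genotype.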
